A study of Mus musculus with 8 samples.

Results

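Mitochondrial ribosomal proteins are encoded by nuclear genes named *Mrpl* (large subunit) or *Mrps* (small subunit), and their expression was followed here in natural killer (NK) cells from mouse spleen. Members were all protein-coding genes whose symbol is Mrpl or Mrps followed by a digit, and they numbered 78 of the 54838 Ensembl gene identifiers in the files (49 *Mrpl* and 29 *Mrps*). The cells called teNK came from MMTV-PyMT mice, described in the series' design as bearing tumours; in this model a mammary promoter drives the polyoma virus middle T oncogene (n = 4 libraries). They were set against hNK cells of healthy wild-type FVB/n mice (n = 4 libraries). In both groups splenic cells were gated on CD45 and CD49b with CD3 absent, and then kept for 12 to 16 h in medium with cytokines, which were not named, before total RNA was taken for stranded poly(A) libraries. The labels say that cells were isolated and cultured for each replicate, but not whether replicates came from different animals, so the p-values reflect the spread among the libraries at hand and no more, and that spread may be technical. The strain on which the MMTV-PyMT mice were kept was not given. The labels describe only the teNK libraries as run in more than 1 flowcell lane, so that the sequencing layout and the group cannot be told apart.

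Mitochondria have ribosomes of their own. These translate the few messenger RNAs of the mitochondrial genome, which code for core subunits of the respiratory chain and of ATP synthase. The ribosomal RNAs come from the mitochondrial genome, whereas every protein of these ribosomes is made in the cytosol from nuclear genes and imported. Some of these proteins were classed here as homologues of bacterial ribosomal proteins, and the others as specific to mitochondria. The mitochondria-specific class includes *Mrps18a* and *Mrps18b*, although they share an ancestral gene with *Mrps18c*, whose protein takes the place of bacterial S18.

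Reads on genes numbered between 13111043 and 16209895 in the teNK libraries and between 5202131 and 12419324 in the hNK libraries, of which hNK 3 and hNK 4 were the shallowest. All 12 NK cell markers listed were detected and tested, and they summed to 14873 to 15425 CPM (read counts scaled to one library size) in teNK and 8808 to 10141 CPM in hNK. Markers of other cell types also differed between the groups. The 13 platelet markers summed to 334 to 575 CPM in teNK and 21.6 to 45.9 CPM in hNK, and all 12 that could be tested were higher in teNK. The 11 B cell markers summed to 142 to 176 CPM in teNK and 88.0 to 130 CPM in hNK, with 10 higher in teNK. Gene by gene they differed more than these sums, with a median log2 fold change of 4.02 and a smallest of 0.02. The 12 myeloid markers, of which *Itgam* is also made by NK cells, summed to 151 to 174 CPM in teNK and 20.8 to 36.4 CPM in hNK, and both that could be tested were higher in teNK. The 9 erythroid markers summed to 3.37 to 9.21 CPM in teNK and 0 to 0.361 CPM in hNK. *Gp1bb* among the platelet markers, *Clec9a*, *Ly6g*, *S100a8*, *S100a9* and *Xcr1* among the myeloid markers, and *Car1*, *Epor*, *Hba-a2*, *Hbb-bs* and *Klf1* among the erythroid markers had no read in any hNK library. The 11 T cell markers, which include the CD3 chains that the sort gated out, summed to 259 to 275 CPM in teNK and 273 to 314 CPM in hNK, with *Cd5* and *Cd8a* at 0 reads in hNK. The part of these other cells in the results below was not tested.

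Mitochondrial ribosomal protein genes were lower in teNK than in hNK as a broad, mostly moderate shift. Of the 77 members with enough reads to be tested, 46 were lower in teNK, 1 was higher and 30 were not called (edgeR quasi-likelihood test, adjusted p under 0.05 over 13903 genes). Among all tested genes 51.9% were called, 25.6% as lower and 26.4% as higher. The median log2 fold change of teNK over hNK was -0.36 over the members, with quartiles at -0.48 and -0.19, and -0.02 over all tested genes. The fitted log2 fold change was below 0 for 69 members and above 0 for 8. In 41 members every teNK library lay below every hNK library, and in 0 members every teNK library lay above, where 46.5% of all tested genes did not overlap, 22.4% with teNK below and 24.1% with teNK above. In bulk RNA, fewer cells of a type and less RNA per cell cannot be told apart. The member that was not tested, *Mrpl53*, had 0 reads in all 8 libraries. In the annotation used here 88.0% of its exonic bases also lie in *Gm42688* (ENSMUSG00000079511) on the same strand, a gene with 117 reads in teNK and 72 reads in hNK.

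**Figure D1:**
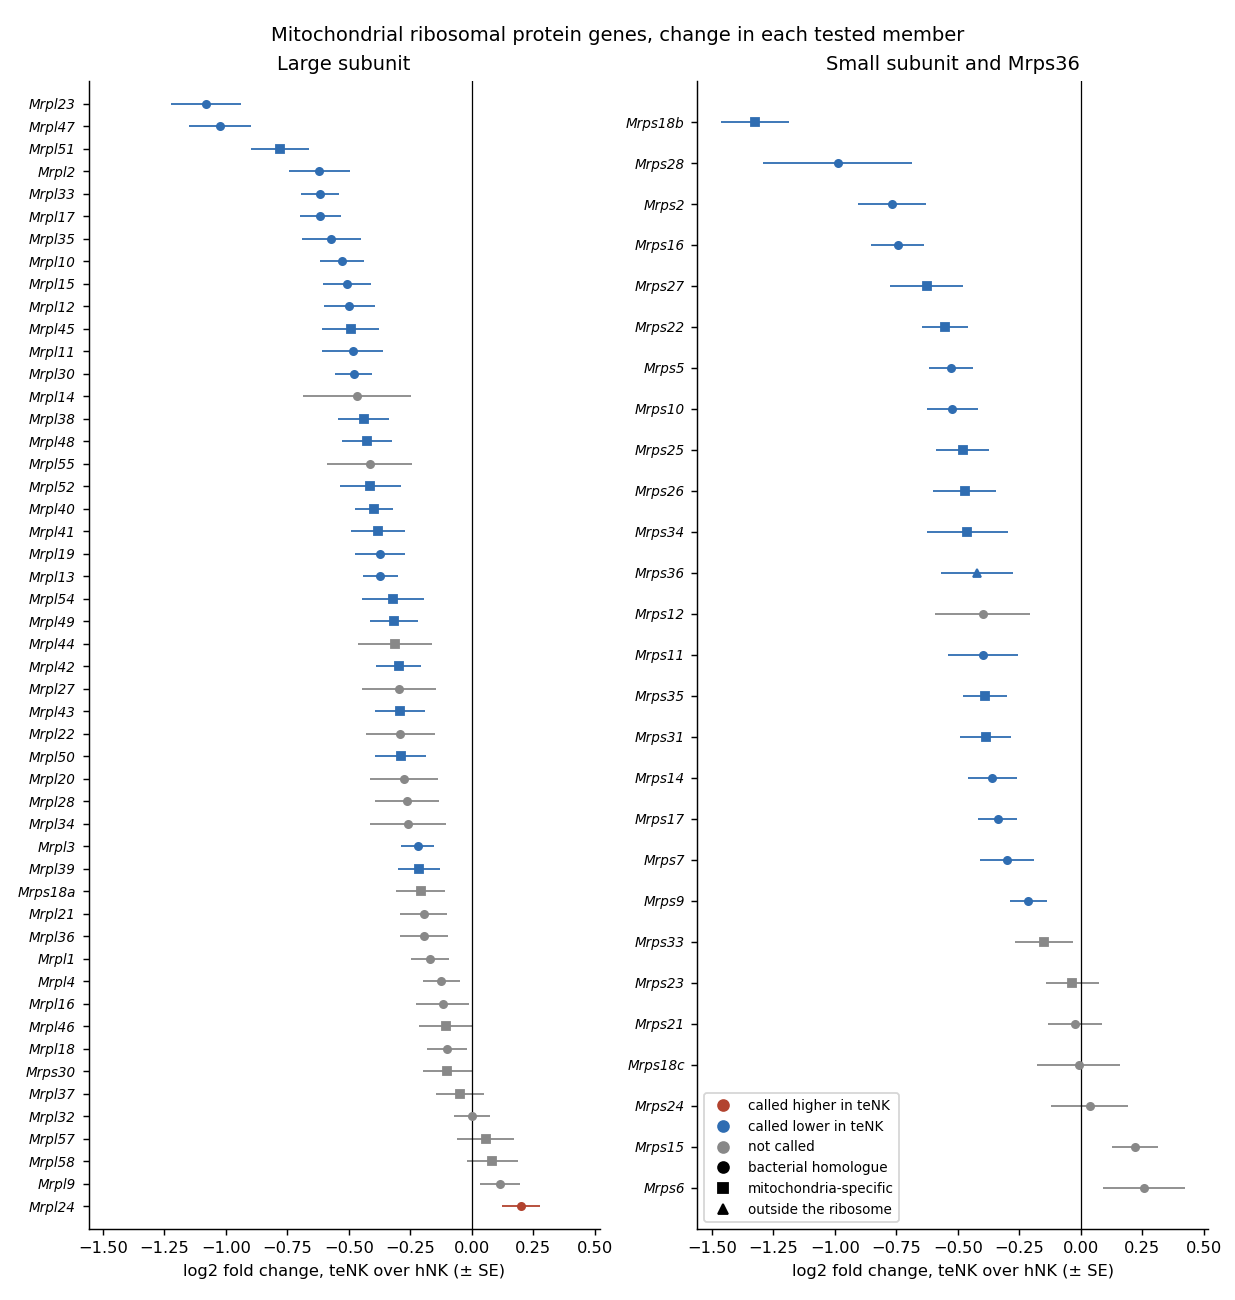
Fitted log2 fold change of teNK over hNK (x axis) for each of the 77 tested members, one row per gene, with bars of 1 standard error. Proteins of the large subunit stand on the left and those of the small subunit with *Mrps36* on the right, colour gives the call and the symbol the evolutionary class. Most points lie left of 0, and *Mrps18b*, at -1.33, lies farthest.

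The shift was small for most genes. Of the 69 members below 0, 3 were lower by at least 2-fold, 8 by 1.5- to 2-fold, 29 by 1.25- to 1.5-fold and 29 by less than 1.25-fold. The test called all 3 of the first, all 8 of the second, 26 of the third and 9 of the last of these groups. Summed over all members, expression was 1391, 1282, 1381 and 1395 CPM in teNK libraries 1 to 4, against 1620, 1650, 1733 and 1687 CPM in hNK libraries 1 to 4. The groups did not overlap in this sum, and the teNK mean was 0.814 of the hNK mean (1362 ± 53.8 against 1672 ± 48.6 CPM, SD, n = 4 each). Each teNK library carried the shift: 68, 73, 68 and 66 of the 77 members lay below the hNK mean in teNK libraries 1 to 4. In hNK libraries 1 to 4 themselves, 49, 43, 27 and 31 members lay below that mean.

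Levels of different genes were compared per kilobase of exon, with all genes scaled to the same total in every library (TPM). On that scale the members had a median of 13.1 TPM in teNK and 15.4 TPM in hNK. In teNK the mean levels ran between 3.65 TPM for *Mrpl23* and 79.4 TPM for *Mrpl24*. In hNK they ran between 5.23 TPM for *Mrpl48* and 78.3 TPM for *Mrpl18*. Next in mean level over all libraries were *Mrpl10* (44.7 TPM in teNK, 60.9 TPM in hNK), *Mrpl40* (44.7 TPM in teNK, 55.7 TPM in hNK) and *Mrps21* (63.3 TPM in teNK, 61.9 TPM in hNK). Of these 5 genes *Mrpl10* and *Mrpl40* were lower in teNK, with log2 fold changes of -0.53 ± 0.09 and -0.40 ± 0.08 (SE), *Mrpl24* was higher, and *Mrpl18* and *Mrps21* were not called at -0.10 ± 0.08 and -0.02 ± 0.11.

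Promoter sequence was examined for letters that members share. The regulators NRF1 and GABP, an ETS-family factor, are known to act on many nuclear genes for mitochondrial proteins, and YY1 is known from promoters of housekeeping and ribosomal protein genes. RefSeq promoter windows on GRCm38.p6, from 250 bases before to 50 bases after the start, were matched for 69 members. *Mrpl13*, *Mrpl15*, *Mrpl19*, *Mrpl38*, *Mrpl4*, *Mrpl54*, *Mrps28*, *Mrps34* and *Mrps35* were not matched. Windows from 150 bases before to 30 bases after the start are shown for 5 members: *Mrpl12* and *Mrpl32*, which share the NRF1 letters but not the call, *Mrps27* and *Mrpl58*, which share the ETS letters but not the call, and *Mrps18b*, the member with the largest fall. They are written 5′ to 3′ on the gene's strand, and capitals mark NRF1 letters (GCGCANGCG or its reverse complement, which can overlap) in the first pair, ETS letters (CCGGAAG or its reverse complement CTTCCGG) in the next pair and YY1 letters (AAGATGG) near the end of *Mrps27*. In *Mrps18b* the matches lay outside the stretch shown.
*Mrpl12*, chr11:120484487-120484666, plus strand, lower in teNK: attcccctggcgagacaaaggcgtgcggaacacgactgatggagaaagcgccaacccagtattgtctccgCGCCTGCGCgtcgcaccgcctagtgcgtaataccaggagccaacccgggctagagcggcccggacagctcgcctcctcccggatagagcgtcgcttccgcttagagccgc
*Mrpl32*, chr13:14613008-14613187, minus strand, not called: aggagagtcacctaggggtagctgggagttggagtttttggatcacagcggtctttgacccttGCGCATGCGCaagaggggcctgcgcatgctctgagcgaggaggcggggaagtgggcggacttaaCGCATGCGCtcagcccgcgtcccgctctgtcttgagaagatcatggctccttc
*Mrps27*, chr13:99344636-99344815, plus strand, lower in teNK: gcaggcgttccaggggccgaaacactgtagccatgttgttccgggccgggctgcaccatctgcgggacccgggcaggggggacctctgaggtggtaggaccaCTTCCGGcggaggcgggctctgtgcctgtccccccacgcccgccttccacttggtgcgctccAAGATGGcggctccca
*Mrpl58*, chr11:115403602-115403781, plus strand, not called: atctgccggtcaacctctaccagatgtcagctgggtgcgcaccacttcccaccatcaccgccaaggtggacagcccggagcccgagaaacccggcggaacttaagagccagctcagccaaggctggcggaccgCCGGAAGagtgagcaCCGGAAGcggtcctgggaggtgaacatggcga
*Mrps18b*, chr17:35916411-35916590, minus strand, lower in teNK: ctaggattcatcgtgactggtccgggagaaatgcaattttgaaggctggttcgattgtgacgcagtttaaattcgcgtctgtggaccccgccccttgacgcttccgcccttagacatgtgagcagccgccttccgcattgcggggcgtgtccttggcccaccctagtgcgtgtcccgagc

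The motifs were searched on both strands of the 300-base windows. The ETS letters stood in the windows of 26 of 69 members (37.7%), against 22.4% of the 8626 tested protein-coding genes with a window. The YY1 letters stood in 13 members (18.8%, against 8.95%), and the NRF1 letters in 16 members (23.2%, against 16.5%). Any of the 3 was present in 44 members (63.8%), against 40.3% of those tested genes. For the E-box CACGTG the shares were 7.25% of members and 12% of tested genes, and for the TATA letters TATAAA they were 7.25% and 8.12%. Over all 27025 genes with a window in the table, the shares were 9.93% for ETS, 7.28% for YY1, 7.03% for NRF1, 8.09% for the E-box and 15.7% for TATA. With ETS letters 12 of 25 tested members were lower (median -0.29), and without them 26 of 43 (median -0.34). With NRF1 letters 9 of 16 were lower (median -0.39), and without them 29 of 52 (median -0.31). With YY1 letters 7 of 13 were lower (median -0.30), and without them 31 of 55 (median -0.34). With the E-box 1 of 5 was lower (median -0.19), and without it 37 of 63 (median -0.34). With TATA letters 2 of 5 were lower (median -0.12), and without them 36 of 63 (median -0.32). A match shows only that the letters are in the window.

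Among the genes of the small subunit, 18 of 26 tested were lower in teNK, 0 were higher and 8 were not called, with a median log2 fold change of -0.39. The 10 proteins specific to mitochondria had 8 genes lower (median -0.47), and the 16 with a bacterial homologue had 10 lower (median -0.35). *Mrps18b*, which encodes a mitochondria-specific protein of the small subunit, had 5.79, 5.97, 6.03 and 5.35 CPM in teNK libraries 1 to 4, against 13.2, 12.7, 18.1 and 14.99 CPM in hNK libraries 1 to 4. All teNK libraries lay close together and well below the lowest hNK library. *Mrps18b* (ENSMUSG00000024436, GRCm38 chromosome 17, 35910379 to 35916389, minus strand) was 2.51-fold lower in teNK, the largest change of any member (log2 fold change -1.33 ± 0.14 SE, adjusted p = 6.11e-07). Exons of the antisense gene *Gm16279* cover 30.5% of its exonic bases. Since the strand setting of the counting was not given, how reads in these shared bases were counted is not known.

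*Mrps18b* has 2 paralogues among the members. *Mrps18a*, whose protein sits in the large subunit, and *Mrps18c*, whose protein takes the place of bacterial S18, derive from the same ancestral gene. *Mrps18a* had 18.4, 16.1, 17.4 and 18.04 CPM in teNK, against 21.5, 18.3, 18.6 and 22.8 CPM in hNK, and was not called (-0.21 ± 0.10, adjusted p = 0.0913). *Mrps18c* had 4.28, 4.32, 4.18 and 4.74 CPM in teNK, against 3.99, 4.92, 4.62 and 3.97 CPM in hNK (-0.01 ± 0.17, adjusted p = 0.974). Exons of *Gm43511* on the same strand cover 23.2% of the exonic bases of *Mrps18c*. Both paralogues overlapped between the groups where *Mrps18b* did not. The ratio of *Mrps18b* to *Mrps18a* in CPM was 0.314, 0.370, 0.346 and 0.297 in teNK, against 0.614, 0.696, 0.973 and 0.659 in hNK, a log2 difference of -1.13 (exact permutation test, two-sided, p = 0.0286, the smallest that 4 against 4 can give, and 0.0429 adjusted over the 3 ratios). For *Mrps18b* to *Mrps18c* the log2 difference was -1.34 (exact permutation p = 0.0286, adjusted 0.0429), and for *Mrps18a* to *Mrps18c* it was -0.21 (exact permutation p = 0.343, adjusted 0.343). The ratios were formed from the values given above, so these tests are not separate evidence for the fall of *Mrps18b*.

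Other large falls in the small subunit were in *Mrps2* and *Mrps16*, which encode proteins with bacterial homologues. *Mrps2* had 14.5, 10.5, 15.8 and 13.7 CPM in teNK, against 18.6, 23.2, 24.1 and 28.2 CPM in hNK (-0.77 ± 0.14, adjusted p = 0.000188). *Mrps16* had 8.69, 10.2, 8.997 and 9.25 CPM in teNK, against 16.0, 15.2, 16.3 and 14.6 CPM in hNK (-0.74 ± 0.11, adjusted p = 2.43e-05). In both genes the highest teNK library was below the lowest hNK library. *Mrps27* encodes a mitochondria-specific protein of the pentatricopeptide repeat type. It had 8.36, 5.40, 7.47 and 7.80 CPM in teNK, against 10.1, 11.7, 11.5 and 11.6 CPM in hNK (-0.63 ± 0.15, adjusted p = 0.00191), with teNK 2 and hNK 1 lowest in their groups. Antisense exons cover 24.2% of its exonic bases. *Mrps10*, a protein of the small subunit with a bacterial homologue, averaged 13.8 ± 1.36 CPM in teNK and 19.9 ± 1.37 CPM in hNK (SD, n = 4 each; -0.52 ± 0.10, adjusted p = 0.00046).

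The low end of expression gave less certain values. *Mrps28*, chosen after its values were seen, had 1.32, 1.14, 0.643 and 2.06 CPM in teNK, against 3.08, 2.62, 2.47 and 1.81 CPM in hNK. The groups overlapped, since teNK 4 was above hNK 4, and the fold change had the largest error of all members (-0.99 ± 0.30, adjusted p = 0.0118, 73 reads in teNK and 95 in hNK). *Mrps12*, the homologue of bacterial S12 of the decoding centre, had 3.16, 3.37, 2.41 and 3.36 CPM in teNK, against 3.66, 4.05, 3.96 and 4.88 CPM in hNK. Its groups did not overlap, but it was not called (-0.40 ± 0.19, adjusted p = 0.093). *Mrps36* was named as a ribosomal protein, and its product is now placed in the 2-oxoglutarate dehydrogenase complex. It had 5.13, 5.27, 5.54 and 5.35 CPM in teNK, against 6.40, 6.99, 8.25 and 7.23 CPM in hNK, and was lower in teNK (-0.42 ± 0.15, adjusted p = 0.0227), a call that was lost without teNK 1 (adjusted p = 0.0586), without hNK 3 (0.0656), without hNK 3 and hNK 4 (0.118), by the DESeq2 test (0.0721) and with no filter (0.0573).

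Among the genes of the large subunit, 27 of 50 tested were lower in teNK, 1 was higher and 22 were not called, with a median of -0.30. Those with a bacterial homologue had 14 of 30 lower (median -0.33) and those specific to mitochondria 13 of 20 (median -0.30). *Mrpl23*, the homologue of bacterial L23 at the exit of the peptide tunnel, had 7.57, 6.03, 6.19 and 6.42 CPM in teNK, against 13.3, 11.8, 14.3 and 17.2 CPM in hNK. It was 2.12-fold lower in teNK (-1.08 ± 0.14, adjusted p = 7.84e-06; ENSMUSG00000037772, chromosome 7, 142532686 to 142540747). Its processed pseudogene *Mrpl23-ps1*, which the rule on biotype left out, was also lower, at 2.36 ± 0.952 CPM in teNK and 4.07 ± 0.802 CPM in hNK (SD, n = 4 each; -0.79 ± 0.27, adjusted p = 0.0223). A processed pseudogene is a copy of its parent's transcript, and how reads that fit both were counted was not given.

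*Mrpl47* and *Mrpl51* followed in size of fall. *Mrpl47*, the homologue of bacterial L29, had 6.71, 5.90, 6.67 and 7.87 CPM in teNK, against 14.2, 12.9, 14.7 and 13.4 CPM in hNK, or 2.03-fold lower in teNK (-1.02 ± 0.13, adjusted p = 4.06e-06). *Mrpl51*, specific to mitochondria, had 9.48, 8.06, 10.8 and 9.40 CPM in teNK, against 14.8, 16.9, 15.7 and 17.3 CPM in hNK (-0.78 ± 0.12, adjusted p = 3.69e-05). Neither gene overlapped between groups. On the opposite strand, exons of other genes cover 24.2% of the exonic bases of *Mrpl47*. *Mrpl12*, the homologue of the bacterial L7/L12 stalk and also reported to bind mitochondrial RNA polymerase, had 18.1, 15.7, 16.5 and 19.3 CPM in teNK, against 24.4, 21.1, 26.4 and 27.8 CPM in hNK (-0.50 ± 0.10, adjusted p = 0.000801). The highest teNK library, teNK 4, was just below the lowest hNK library, hNK 2. *Mrpl48*, a mitochondria-specific protein, averaged 12.2 ± 0.856 CPM in teNK and 16.5 ± 0.701 CPM in hNK (-0.43 ± 0.10, adjusted p = 0.00225).

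**Figure D2:**
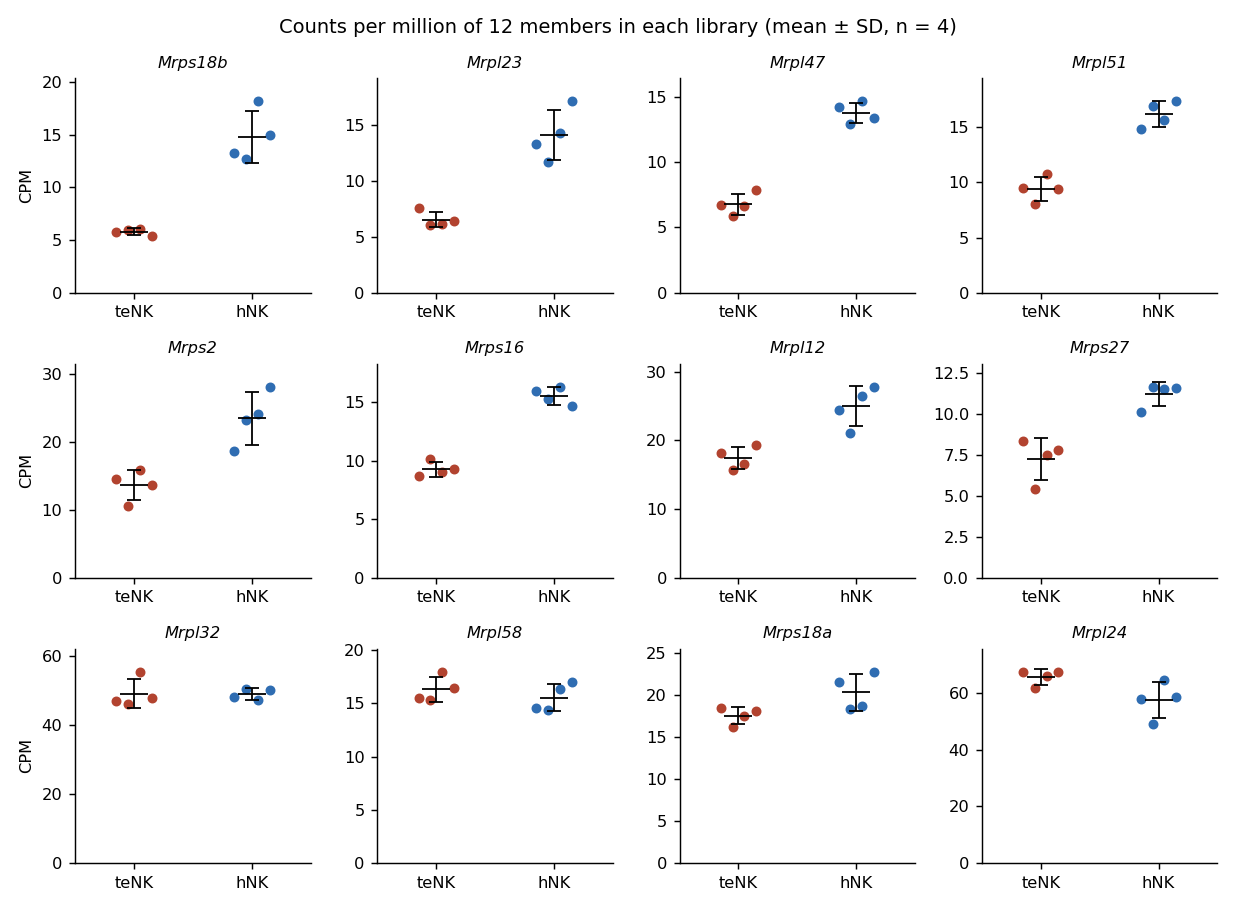
Expression in CPM (y axes, each starting at 0) of 12 members in the 4 teNK and 4 hNK libraries, one point per library, with the mean and SD (n = 4). In the first 8 panels, from *Mrps18b* to *Mrps27*, every teNK point lies below every hNK point, while in *Mrpl32*, *Mrpl58*, *Mrps18a* and *Mrpl24* the groups overlap.

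Not all members of the large subunit were lower. *Mrpl32*, the protein whose cleavage by the m-AAA protease is a step of ribosome assembly, had 46.9, 46.0, 55.4 and 47.9 CPM in teNK, against 48.0, 50.4, 47.2 and 50.2 CPM in hNK. The libraries were mixed in order, and the log2 fold change was 0.00 ± 0.07 (adjusted p = 0.988). *Mrpl58*, a peptidyl-tRNA hydrolase built into the large subunit that releases stalled ribosomes, had 15.5, 15.3, 17.99 and 16.4 CPM in teNK, against 14.5, 14.4, 16.3 and 17.0 CPM in hNK (0.08 ± 0.10, adjusted p = 0.525). *Mrpl24*, the most highly expressed member per length in teNK, had 67.6, 61.8, 66.2 and 67.7 CPM in teNK, against 58.2, 49.2, 64.6 and 58.9 CPM in hNK. teNK 2 was below hNK 3, so the groups overlapped. *Mrpl24* was the only member called higher (0.20 ± 0.08, adjusted p = 0.0431), and the call held in 10 of 18 alternative settings. It was lost without teNK 1, teNK 3, teNK 4, hNK 2 or hNK 4 (adjusted p between 0.0553 and 0.190), and without hNK 2 the log2 fold change was 0.12. The call was also lost with upper-quartile scaling (adjusted p = 0.0868) and TMM on protein-coding genes (0.0568). With library totals alone the log2 fold change was 0.068 (adjusted p = 0.500). Antisense exons cover 26.3% of its exonic bases. *Mrps15*, a small subunit protein chosen after its values were seen, had 31.3, 27.8, 32.8 and 32.5 CPM in teNK and 24.4, 24.5, 30.2 and 28.9 CPM in hNK, and was not called (0.22 ± 0.09, adjusted p = 0.0563). It was called higher in 6 of 18 alternative settings, with adjusted p between 0.0109 and 0.430 over all of them.

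The subunits differed slightly in their summed expression. Large subunit genes summed to 986 ± 39.6 CPM in teNK and 1193 ± 32.9 CPM in hNK (SD, n = 4 each), a ratio of 0.827, and small subunit genes to 370 ± 14.3 CPM in teNK and 472 ± 15.3 CPM in hNK, a ratio of 0.784. The small subunit's share of both sums was 27.2% to 27.4% in teNK and 28.1% to 28.6% in hNK, ranges that did not overlap. Tested protein-coding genes were also put in 4 classes of equal number by exonic length. In these, beginning with the shortest, 21 of 44, 11 of 17, 7 of 9 and 7 of 7 members were lower in teNK, where 30.5%, 26%, 24.5% and 21.8% of all such genes were lower.

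Of 6 further proteins that belong to or bind the mitochondrial ribosome and do not carry an Mrp name, 4 genes were lower in teNK, 1 was higher and 1 was not called (median -0.21). *Gadd45gip1* (-0.58 ± 0.10, adjusted p = 0.000159), *Chchd1* (-0.49 ± 0.13, adjusted p = 0.00434) and *Oxa1l*, whose protein inserts newly made chains into the inner membrane (-0.18 ± 0.06, adjusted p = 0.0263), were lower. Only 2 of the 6 were called lower without teNK 3. *Dap3*, a GTP-binding protein of the small subunit, was the exception. It had 38.3, 43.1, 41.5 and 39.0 CPM in teNK, against 29.0, 25.8, 26.4 and 27.1 CPM in hNK, so every teNK library was above every hNK library (0.58 ± 0.08, adjusted p = 9.57e-06).

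Genes for the assembly of these ribosomes were lower in 14 of 30 and higher in 3 (median -0.23). *C1qbp*, a matrix protein needed for mitochondrial translation, had 17.1, 15.6, 16.8 and 18.6 CPM in teNK, against 25.6, 37.8, 47.8 and 44.4 CPM in hNK (-1.17 ± 0.15, adjusted p = 5.48e-06). *Mpv17l2* (-0.76 ± 0.11) and the ribosomal RNA methyltransferase *Nsun4* (-0.65 ± 0.11) were also lower. *Spg7*, a subunit of the m-AAA protease, was higher in teNK at 48.3 ± 1.59 CPM, against 29.6 ± 2.58 CPM in hNK (SD, n = 4 each; 0.70 ± 0.08, adjusted p = 1.04e-06). Among mitochondrial translation factors 5 of 18 genes were lower, 0 were higher and 13 were not called (median -0.07), a share of lower genes near the 25.6% of all tested genes. The elongation factor *Tufm* (-0.55 ± 0.10), the mRNA-binding *Lrpprc* (-0.42 ± 0.06), the release factor *Mtrf1l* (-0.37 ± 0.09) and the recycling factor *Mrrf* (-0.54 ± 0.13) were lower.

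Of 17 genes for maintenance and transcription of mitochondrial DNA, 6 were higher and 6 lower (median -0.01), where 26.4% of all tested genes were higher and 25.6% lower. The topoisomerase gene *Top1mt* was higher in teNK, at 22.1 ± 1.75 CPM, against 7.60 ± 1.52 CPM in hNK (1.60 ± 0.13, adjusted p = 3.47e-08), as were the polymerase subunit genes *Polg2* (1.18 ± 0.12) and *Polg* (0.55 ± 0.08). *Ssbp1*, the single-strand binding protein, was lower (-0.52 ± 0.07). Of the 13 protein genes of the mitochondrial genome, whose mRNAs these ribosomes translate, 5 were higher, 0 were lower and 8 were not called (median 0.14). *mt-Nd6* averaged 164 ± 12.7 CPM in teNK and 98.1 ± 18.8 CPM in hNK (0.74 ± 0.11, adjusted p = 2.80e-05). Without teNK 4 the count of higher genes was 3.

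Among 14 regulators of mitochondrial biogenesis 5 were lower and 3 higher (median -0.10), where 25.6% of all tested genes were lower and 26.4% higher. The coactivator gene *Ppargc1a* had 7.04, 9.33, 5.38 and 7.87 CPM in teNK, against 37.3, 35.8, 31.8 and 29.6 CPM in hNK (-2.19 ± 0.13, adjusted p = 9.39e-10). Its relative *Pprc1* (-0.89 ± 0.10) and *Myc* (-0.54 ± 0.12) were lower, and the corepressor gene *Nrip1* was higher (0.58 ± 0.07). Without teNK 2 the count of lower genes was 3. The protein of *Myc* is known to bind the E-box letters. The genes of NRF1, GABP and YY1 were named after their values were seen, and none of these 3 was called: *Nrf1* averaged 57.9 ± 2.03 CPM in teNK and 60.4 ± 3.94 CPM in hNK, *Gabpa* 149 ± 9.91 CPM in teNK and 146 ± 11.5 CPM in hNK, and *Yy1* 186 ± 8.56 CPM in teNK and 183 ± 9.82 CPM in hNK (SD, n = 4 each).

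**Figure D3:**
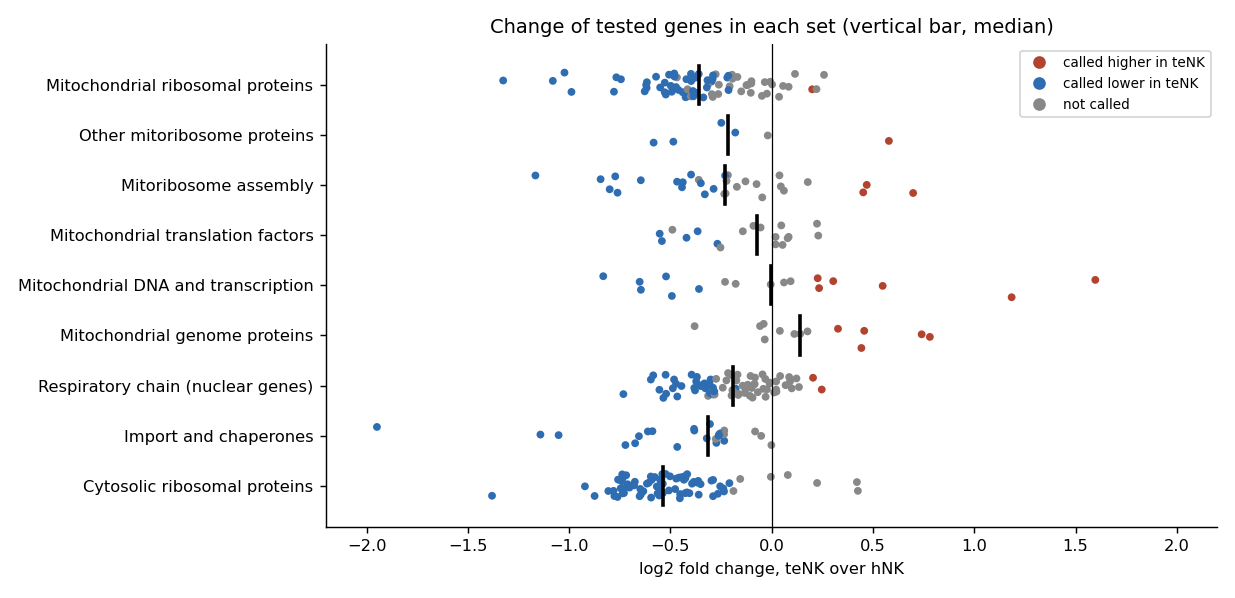
Fitted log2 fold change of teNK over hNK (x axis) of each tested gene in 9 gene sets, one point per gene, coloured by call, with a vertical bar at the set's median. The median is -0.36 for mitochondrial ribosomal proteins, -0.54 for cytosolic ribosomal proteins and 0.14 for mitochondrial genome proteins, and 1 gene (*Cox6a2*) lies outside the axis limits.

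Of 24 tested genes for protein import and mitochondrial chaperones 18 were lower and 0 higher (median -0.31). *Hspa9*, the matrix Hsp70, had 94.9, 94.7, 94.4 and 95.2 CPM in teNK, against 324, 355, 380 and 407 CPM in hNK (-1.95 ± 0.07, adjusted p = 1.71e-12). The channel gene *Tomm40* (-0.66 ± 0.10), *Timm50* (-0.61 ± 0.10) and the protease gene *Clpp* (-0.72 ± 0.12) were lower. The list of the mitochondrial stress response shares *Clpp*, *Hspd1*, *Hspe1* and *Lonp1* with the import list, and it also holds genes that act outside mitochondria, such as *Asns*, *Trib3*, *Chac1*, *Psat1* and *Atf4*. In it 13 of 14 tested genes were lower and 0 higher (median -2.45). *Mthfd2*, a mitochondrial enzyme of the folate cycle, averaged 5.80 ± 0.680 CPM in teNK and 115 ± 16.9 CPM in hNK (-4.30 ± 0.12, adjusted p = 6.45e-14), and its partner *Shmt2* 31.1 ± 1.93 CPM in teNK and 173 ± 14.7 CPM in hNK (-2.47 ± 0.08, adjusted p = 1.79e-13; SD, n = 4 each).

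Against the ribosomes of the cytosol mitochondrial ribosomal protein genes had the smaller median change. Of 80 tested cytosolic ribosomal protein genes, chosen by symbol, 73 were lower and 0 higher (median -0.54), and their summed expression was 19129 ± 1287 CPM in teNK and 28209 ± 1699 CPM in hNK, a ratio of 0.678. The members' sum amounted to 6.91% to 7.45% of the cytosolic sum in teNK and 5.55% to 6.18% in hNK, so the ranges did not overlap. Against the nuclear-encoded respiratory chain they had the larger one. The list for that chain, chosen by symbol, also holds the nuclear genes of ATP synthase. Of 78 tested subunit genes 31 were lower and 2 higher (median -0.19), and their sum was 3683 ± 206 CPM in teNK and 4137 ± 228 CPM in hNK, a ratio of 0.890. The members' sum amounted to 37.0% ± 0.716 of the respiratory chain sum in teNK and 40.5% ± 1.55 in hNK (SD, n = 4 each), again without overlap. The protein genes of the mitochondrial genome summed to 28711 ± 1503 CPM in teNK and 25518 ± 3747 CPM in hNK (SD, n = 4 each), with overlapping libraries. These ratios of sums are descriptions and were given no test.

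**Figure D4:**
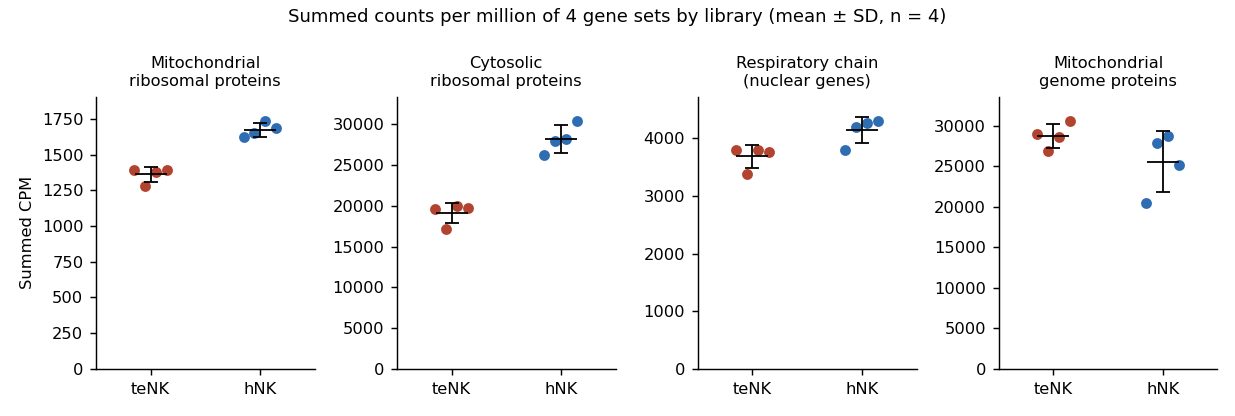
Summed CPM (y axes, each starting at 0) of 4 gene sets in each library, one point per library, with the mean and SD (n = 4; teNK left, hNK right). The sums of mitochondrial and of cytosolic ribosomal proteins are lower in all 4 teNK libraries, and the sums of mitochondrial genome proteins overlap between the groups.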

How the data were processed

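For each library the authors deposited a table of raw read counts, whole numbers by Ensembl gene. Per the submitters' processing notes, HISAT2 2.1.0, SAMtools, HTSeq and the build GRCm38 were used. Their settings, including the use of strand, and the gene annotation behind the counts are not given in the sources used here. The 5 summary lines of each file stayed out of library sizes and tests: reads in no gene made up 32.3% to 41.2% of a file and ambiguous reads 1.52% to 2.07%. No other column of values was left unused (0 columns). Of 54838 identifiers, 54809 matched GENCODE M21 (GRCm38), which gave symbols, biotypes and exon lengths.

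Counts were fitted for all genes with edgeR 4.0.16 (R 4.3.3): filterByExpr left 13903 genes, libraries were scaled by TMM, and the quasi-likelihood F test compared 4 teNK with 4 hNK libraries with no covariate. P-values were adjusted by Benjamini-Hochberg over all tested genes, and calls used an adjusted p under 0.05. The SE of a log2 fold change is its size over the root of F. CPM used TMM effective library sizes, and TPM used exon lengths. The fitting was tested on simulated counts, with 50 genes, drawn at random from those tested, changed by each size. It recovered 28% of changes of 1.25-fold, 52% of 1.5-fold, 78% of 2-fold and 100% of 4-fold, with 11 false calls. Far fewer genes were changed there than the 51.9% called in the data. The adjusted threshold was therefore stricter in the simulation, and these shares are not the sensitivity reached in the data. A member that was not called may still differ. A count of 0 allows up to 3 reads, which covers counting error only. That is 0.185 to 0.577 CPM by library when taken over all reads on genes, without TMM. Replicates were compared for duplicates, and no pair agreed within sampling noise. Permutation tests used scipy 1.17.1.

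The members and the gene lists were chosen with earlier results of these data known. Members named with values were the 6 called in each direction with the largest change among those whose mean log2 CPM reached 2 (1 was available for higher), the 5 highest and 3 lowest per length above that level, the *Mrps18* paralogues, *Mrps36*, *Mrpl12*, *Mrpl58*, *Mrpl32*, *Mrps12*, *Mrps27* and any member not tested. Of each other list up to 4 called genes with the smallest adjusted p could be named. Alternatives covered scaling, filters, DESeq2 1.42.0, limma 3.58.1 (voom), a replicate block, leaving out each library, and, chosen after seeing the data, leaving out the 2 shallowest libraries.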

Additional observations from a re-analysis of the deposited data

Results flagged for a closer look

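In each group of 4 libraries, a member was set apart when its highest or lowest library stood off from the other three by more than Dixon's 95% critical value for the gap over the range. This held in 10 of 154 combinations of member and group, where chance gives about 1 in 20. In teNK, replicate 3 was lowest for *Mrpl2* (8.03 CPM, the others 9.40 to 9.41) and highest for *Mrpl27* (8.997 CPM, the others 7.37 to 7.57) and *Mrpl3* (34.7 CPM, the others 33.6 to 33.8). Replicate 2 of teNK was lowest for *Mrpl57* (11.8 CPM, the others 15.1 to 15.7), and replicate 1 of teNK was highest for *Mrps31* (14.4 CPM, the others 12.4 to 12.7). In hNK, replicate 1 was highest for *Mrpl9* (45.1 CPM, the others 36.8 to 37.8) and lowest for *Mrpl48* (15.5 CPM, the others 16.8 to 17.0) and *Mrps27* (10.1 CPM, the others 11.5 to 11.7). Replicate 2 of hNK was highest for *Mrpl30* (38.1 CPM, the others 34.5 to 34.9), and replicate 4 of hNK was lowest for *Mrpl37* (18.8 CPM, the others 22.3 to 22.9). *Mrpl9*, *Mrpl27*, *Mrpl37* and *Mrpl57* were not called between the groups, and the other 6 genes were lower in teNK.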

How the results depend on the processing

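Over 18 alternatives the number of members lower in teNK ran between 34 (without hNK 3 and hNK 4) and 61 (library totals alone), and between 39 and 45 when 1 library was left out. Of the 46 lower members 32 kept the call in every alternative that tested them, of which *Mrps28* was not tested with the stricter filter. The number of higher members, 1, was 2 with DESeq2's size factors, with limma-voom and without hNK 3 and hNK 4, 0 with upper-quartile scaling, library totals alone and TMM on protein-coding genes, and 0 to 2 with 1 library left out. Scaling by library totals alone lowered the median of all genes to -0.15 (a shift of -0.13) and that of the members to -0.49, and relative to all genes the members' median was -0.34 in both. It gave 2709 higher and 5114 lower genes in all (34.6% of calls higher), against 3665 and 3557 (50.7%) with TMM. With it 54 respiratory chain genes were lower, 0 higher, and 3 genes of mitochondrial DNA maintenance, 1 biogenesis regulator and 3 of the mitochondrial genome were higher. Respiratory chain genes higher were 1 with upper-quartile scaling and with the replicate block, and 0 to 2 with 1 library left out. Of the further proteins that belong to or bind the ribosome, 2 were lower by DESeq2 and without hNK 3 and hNK 4, and 2 to 4 with 1 library left out. With 1 library left out, 3 to 5 biogenesis regulators were lower, 3 to 5 mitochondrial genome genes and 0 or 1 cytosolic ribosomal protein gene higher. That last count was 1 with the stricter filter. The cause was not tested.

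Direction turned only in members that were not called. For *Mrpl32* (0.0015) the log2 fold change was -0.033 with upper-quartile scaling, -0.128 with library totals alone, -0.016 with TMM on protein-coding genes, -0.0048 with limma-voom, -0.0041 with the replicate block and -0.011 without hNK 3 and hNK 4. With library totals alone it was -0.074 for *Mrpl57*, -0.047 for *Mrpl58*, -0.016 for *Mrpl9* and -0.095 for *Mrps24*. *Mrps18c* was at 0.0026 with DESeq2's size factors and 0.012 by DESeq2's test, and *Mrps21* at 0.074 without hNK 3 and hNK 4. With 1 library left out the range was -0.056 to 0.035 for *Mrpl32*, -0.102 to 0.0022 for *Mrpl37*, -0.066 to 0.067 for *Mrps18c*, -0.121 to 0.023 for *Mrps21*, -0.099 to 0.049 for *Mrps23* and -0.073 to 0.154 for *Mrps24*. The libraries' replicate numbers are shared between the groups. Deviations from the group means correlated at 0.045, -0.107, 0.145 and 0.018 in same-numbered libraries. In differently numbered libraries these correlations ran between -0.180 and 0.225. Whether same-numbered libraries share a preparation cannot be told from these values. With a replicate block 43 members were lower and 1 higher. Depth limits the low members: hNK 4 had 5202131 reads on genes.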
